A study of Homo sapiens with 12 samples.

Results

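The response to a lentivirus carrying KLF4 was described in the 2 lines of THP-1 cells made with non-targeting CRISPR guides, NT-2 and NT-3. These lines served as the controls of the CRISPR experiment, since their guides were not aimed at a gene under study. They account for 4 of the 12 arrays. Each line gave 1 array after KLF4 virus and 1 array after the empty control virus (ECV), so the groups were KLF4 virus in NT-2 and NT-3 (n = 2) and ECV in NT-2 and NT-3 (n = 2). The other 8 arrays held the same pair of viruses in 4 targeted lines, 2 with CRISPR aimed at miR-150 and 2 at p21, the product of CDKN1A. All 12 arrays were of THP-1 cells that had been infected 5 days earlier and selected for CRISPR 17 days earlier, so infection and selection were shared by every group. THP-1 is an established human line from an acute monocytic leukaemia. The labels do not say whether a line is 1 clone or a pool of cells, or which promoter drives KLF4.

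KLF4 is a zinc-finger transcription factor of the Krueppel-like family that binds GC-rich and CACCC-type DNA. In the blood system it is known for promoting the step from myeloid progenitor to monocyte, and it raises the cell cycle inhibitor p21 in several cell types. Monocytes differ from their progenitors in surface receptors, in calcium-binding S100 proteins and in lower cell division. MYC and MYB are factors of the progenitor state that fall as monocytes mature.

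Values are log2 expression as the authors deposited them, and a difference is KLF4 virus minus ECV on that scale unless stated otherwise. Of 47323 probes, 21721 lay above the background level of 7.27 on at least 2 arrays, and 11857 genes with a name were tested. A gene was called where the adjusted p from limma was under 0.05. Of 8 genes chosen to check the myeloid identity of the cells, 7 were tested. SPI1, the master factor of myeloid cells, stood at 11.5 and 10.8 in NT-2 and NT-3 with KLF4 virus, and at 10.7 in both with ECV. LYZ, lysozyme, stood between 14.2 and 14.8 on the 4 arrays. MPO, the granule enzyme of progenitors, was near the background level, between 7.16 and 7.32. RNA came from whole cultures, so fewer cells of a kind and less RNA per cell cannot be told apart in any result.

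KLF4's own probe did not differ between the viruses. It read 7.86 in NT-2 and 7.65 in NT-3 with KLF4 virus, against 7.91 and 7.76 with ECV, a difference of -0.08 ± 0.103 (SE; limma adjusted p = 0.619). The second probe of KLF4 gave -0.18. The position of both probes relative to the viral KLF4 insert is unknown here, so these values do not check the virus labels. CDKN1A, a known target of KLF4, read 12.5 and 11.7 with KLF4 virus, against 9.22 and 9.16 with ECV, and rose 7.37-fold (adjusted p = 4.2e-07).

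Promoters of 4 genes are shown first, 2 from each side of the result. They were picked from the named genes because they hold the motif marked in them. S100A8 and CD52 had the largest rises shared by both lines, and IFIT1 and ISG15 were among the genes that rose far more in NT-2. Each sequence is the 250 bases before the gene's start in the direction of transcription, from RefSeq on GRCh38.p14. S100A8 is at chr1:153391189-153391438 (minus strand), CD52 at chr1:26317708-26317957 (plus strand), IFIT1 at chr10:89392373-89392622 (plus strand) and ISG15 at chr1:1013247-1013496 (plus strand). Capitals mark GGGNGTGG, a motif of Krueppel-like factors, in S100A8 and CD52. In IFIT1 and ISG15 they mark the interferon-stimulated response element, searched as GAAA, any 2 bases and GAAA again. Both strands were searched, and only the motif named for a promoter is in capitals. IFIT1 and ISG15 also hold 1 match each to GGGNGTGG, and of the 10 largest shared rises with a promoter in the table, 2 hold a match and 8 do not. Among the 10 largest gaps in favour of NT-2, CCL8, PPBP, AQP9, S100A12, SPP1 and CCL3L3 hold no match to the response element. IFIT2 and CCL3L1 had no promoter in the table.
S100A8: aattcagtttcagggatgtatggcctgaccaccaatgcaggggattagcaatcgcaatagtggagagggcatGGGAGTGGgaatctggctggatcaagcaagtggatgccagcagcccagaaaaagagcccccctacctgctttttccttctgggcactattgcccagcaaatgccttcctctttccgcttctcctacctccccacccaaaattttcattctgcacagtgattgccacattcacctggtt
CD52: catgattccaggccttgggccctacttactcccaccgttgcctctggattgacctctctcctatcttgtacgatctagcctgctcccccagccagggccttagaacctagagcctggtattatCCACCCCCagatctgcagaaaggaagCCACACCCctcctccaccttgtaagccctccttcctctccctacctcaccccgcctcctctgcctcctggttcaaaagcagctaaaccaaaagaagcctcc
IFIT1: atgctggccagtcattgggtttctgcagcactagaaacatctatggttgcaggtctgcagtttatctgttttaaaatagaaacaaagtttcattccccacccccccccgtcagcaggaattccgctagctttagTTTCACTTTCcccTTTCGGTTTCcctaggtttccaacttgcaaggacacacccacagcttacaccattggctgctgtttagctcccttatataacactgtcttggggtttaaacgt
ISG15: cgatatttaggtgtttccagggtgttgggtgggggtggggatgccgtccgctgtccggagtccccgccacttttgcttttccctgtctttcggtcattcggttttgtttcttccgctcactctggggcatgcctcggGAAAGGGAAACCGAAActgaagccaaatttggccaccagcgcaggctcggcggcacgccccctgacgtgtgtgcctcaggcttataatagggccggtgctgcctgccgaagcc
The response element occurs in both interferon genes as a pair, which overlaps in ISG15 at 113 to 104 and 107 to 98 bases before the start. In IFIT1 the pair lies on the minus strand at 116 to 107 and 103 to 94 bases before the start.

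KLF4 virus changed a large part of the transcriptome in these control lines. Of 11857 genes, 1443 (12.2%) rose and 1810 (15.3%) fell, 3253 called genes (27.4%) in all. Each of them moved the same way in NT-2 and NT-3, but the test leaves little room for another outcome. A gap between the lines adds to its spread, and opposite signs shrink its mean. Over all genes 69.98% had the same sign. At least 2-fold in both lines, 137 genes (1.16%) rose and 33 (0.278%) fell, and each of them was also called. Of the 137, 12 had both ECV arrays below the background level, so their fold rests on a dim ECV value. Without the NT-3 ECV array 2028 genes were called. The largest rises were in S100 proteins, leukocyte receptors and aldo-keto reductases, and the largest falls in tryptases, growth regulators and genes of myeloid progenitors.

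S100A8 and S100A9 encode the 2 chains of calprotectin, a calcium-binding protein abundant in monocytes and neutrophils. S100A8 read 14.4 and 13.7 in NT-2 and NT-3 with KLF4 virus, against 8.88 and 8.69 with ECV, a 38.9-fold rise (5.28 ± 0.252, SE; adjusted p = 1.03e-08). S100A9 read 14.5 and 14.2 with KLF4 virus, against 11.3 and 11.1 with ECV, and rose 9.31-fold (adjusted p = 1.03e-08). Both KLF4 arrays lay far above both ECV arrays for each gene, and the response of S100A9 was nearly equal in the lines (NT-2 minus NT-3 of 0.08 ± 0.248, SE).

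CD52, a small glycoprotein anchored on lymphocytes and monocytes, was the second largest rise and nearly equal in the lines. It read 13.5 and 13.6 with KLF4 virus, against 8.74 and 8.85 with ECV, and rose 27.3-fold (4.77 ± 0.103, SE; adjusted p = 1.57e-12). The response in NT-2 minus that in NT-3 was -0.04 ± 0.193 (SE). CD52 stands on the list of lymphoid markers, of which 11 of 20 were tested. Of these 11, 3 rose (CD52, CD2 and NKG7; 27.3%) and none fell, against 12.2% and 15.3% of all genes. MS4A1, CD79A and LCK, which define B and T cells, stayed between 7.11 and 7.45 on the 4 arrays, and the CD3 chains were not tested, having no named probe past the filter. The summed linear level of the 11 was 34216 and 34681 in NT-2 and NT-3 with KLF4 virus, against 10831 and 11677 with ECV. NKG7 (14.3 in NT-2 with KLF4 virus) and CD52 make up most of that sum. The median difference of the 11 was 0.17 in NT-2 and 0.005 in NT-3.

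Surface receptors of monocytes and macrophages rose as a group. Of 33 tested, 24 rose and 1 fell, against 12.2% and 15.3% of all genes. The group's median difference was 1.40 in NT-2 and 0.84 in NT-3, against -0.03 and -0.02 over all genes. TREM1, which amplifies inflammatory signals, read 12.4 and 11.9 with KLF4 virus, against 7.90 and 8.03 with ECV (18.4-fold; adjusted p = 3.01e-10). ITGAM, the CD11b chain of an adhesion and complement receptor, read 11.3 and 11.1 with KLF4 virus, against 8.18 and 7.78 with ECV (9.1-fold). CD86, a costimulatory ligand for T cells, rose 6.54-fold, and FPR1, a receptor for formylated bacterial peptides, rose 4.93-fold. The response was not called different between the lines for these 4, with folds of 22.6 and 15 for TREM1, 8.48 and 9.76 for ITGAM, 7.54 and 5.68 for CD86, and 5.09 and 4.78 for FPR1 in NT-2 and NT-3. CLEC12A, an inhibitory lectin receptor of myeloid cells, was the one that fell, by 0.71. Of the 33 receptors, 13 were called for a higher response in NT-2 and none for a lower one, against 1.83% and 0.708% of all genes.

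LILRA3, a secreted receptor of the leukocyte immunoglobulin-like family, and CD163, the macrophage scavenger receptor for haemoglobin, rose in both lines by unequal amounts. LILRA3 read 12.4 and 11.2 with KLF4 virus, against 7.34 and 7.33 with ECV. CD163 read 12.7 and 10.8 with KLF4 virus, against 7.27 and 7.31 with ECV. With ECV both genes were near the background level in both lines. LILRA3 rose 34.3-fold in NT-2 and 14.4-fold in NT-3, and CD163 rose 43.1-fold in NT-2 and 11.4-fold in NT-3. The difference between the lines, NT-2 minus NT-3, was called for both, at 1.26 ± 0.265 for LILRA3 (adjusted p = 0.0109) and 1.92 ± 0.425 for CD163 (adjusted p = 0.0148). Over both lines each gave 4.47 on the probe used, against 2.88 on the second probe of LILRA3 and 3.28 and 4.43 on the others of CD163.

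The rest of the 12 largest shared rises were 2 aldo-keto reductases, a water channel, a membrane protein and a transcription factor. AKR1C2 and AKR1C4 reduce steroids, and their sequences are close enough for a probe to take up RNA of another family member. AKR1C2 read 12.3 and 11.5 with KLF4 virus, against 8.50 and 8.55 with ECV (10.3-fold), and AKR1C4 rose 8.52-fold. AQP9, a channel for water and glycerol, read 12.1 and 9.86 with KLF4 virus, against 7.73 and 7.78 with ECV. Its rise was 20.5-fold in NT-2 and 4.21-fold in NT-3, and without the NT-2 KLF4 array the common difference was 2.10 in place of 3.22. EMP1, an epithelial membrane protein, rose 13.2-fold in NT-2 and 5.54-fold in NT-3. NFE2, a factor of erythroid and myeloid cells, read 11.5 and 11.8 with KLF4 virus, against 8.47 and 8.79 with ECV, 8.37-fold in NT-2 and 8.15-fold in NT-3. The difference between the lines was called for AQP9, EMP1 and AKR1C4, not for AKR1C2 (0.81 ± 0.278, SE; adjusted p = 0.144) or NFE2. All 12 remained called without the NT-2 KLF4 array.

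The largest shared fall was that of MS4A3, a membrane protein of granulocyte and monocyte progenitors. It read 8.76 and 9.05 with KLF4 virus, against 10.8 and 11 with ECV, and fell by 1.99 ± 0.118 (SE; adjusted p = 1.02e-07). That is the probe with the highest level, and the other 2 probes of MS4A3 gave -1.59 and -0.46. The tryptase genes TPSB2 and TPSAB1 fell by 1.63 each. They are near-identical copies, so their probes may not tell them apart. CSF3R, the receptor for granulocyte colony-stimulating factor, read 8.42 and 8.32 with KLF4 virus, against 9.77 and 9.75 with ECV. SLC2A5, the fructose transporter, read 9.57 and 9.66 with KLF4 virus, against 11.2 and 10.99 with ECV. For each of these genes both KLF4 arrays lay below both ECV arrays, and no difference between the lines was called. INKA1, an inhibitor of the kinase PAK4, fell by 1.58. ATP9A, a phospholipid flippase, fell by 1.38, and ART3, an ectoenzyme of the ADP-ribosyltransferase family, by 1.32.

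TMEM163, a zinc transporter, and UNG, the uracil-DNA glycosylase of base excision repair, fell further in NT-2. TMEM163 read 8.73 and 9.63 with KLF4 virus, against 10.9 and 10.96 with ECV. UNG read 9.40 and 9.82 with KLF4 virus, against 11.4 and 11.1 with ECV. The lines differed by -0.85 ± 0.224 for TMEM163 (adjusted p = 0.0425) and by -0.79 ± 0.197 for UNG (adjusted p = 0.0325). UNG rests on 1 of its 3 probes: the other 2 gave -0.22 and -0.05. All 12 falls remained called without the NT-2 KLF4 array.

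**Figure D1:**
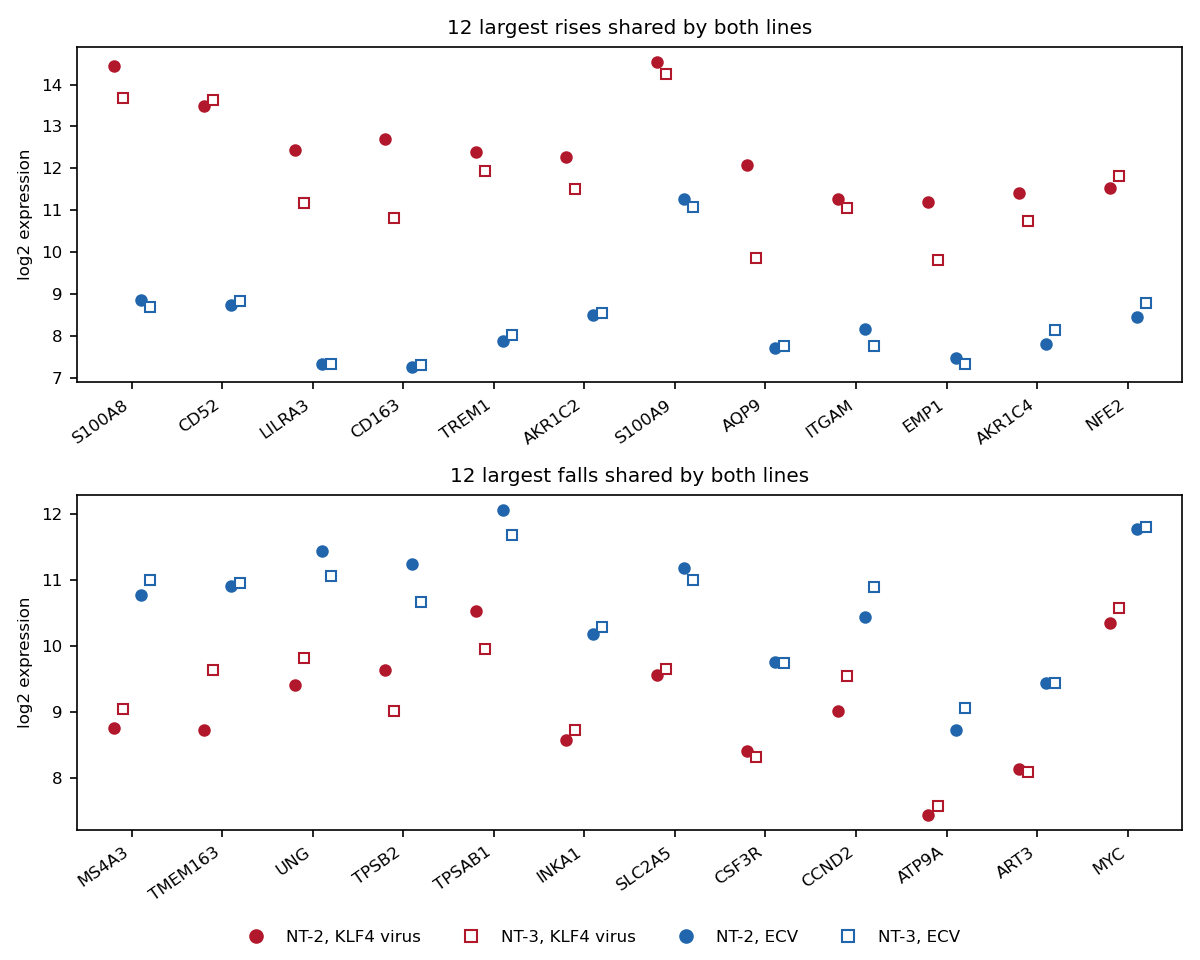
Log2 expression (vertical axis) of the 12 largest rises and the 12 largest falls shared by NT-2 (circles) and NT-3 (squares), with KLF4 virus in red and ECV in blue, 1 point per array. The red points lie apart from the blue ones for every gene, and the 2 red points stand far from each other for CD163 (12.7 and 10.8) and AQP9 (12.1 and 9.86).

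Factors of the progenitor state fell in both lines. MYB read 12.05 and 12.5 with KLF4 virus, against 13.0 and 13.1 with ECV, and fell by 0.84 ± 0.127 (SE; adjusted p = 0.000275). MYC read 10.4 and 10.6 with KLF4 virus, against 11.8 and 11.8 with ECV, and fell by 1.32 ± 0.0943 (SE; adjusted p = 5.04e-07). Of 29 genes on the list of MYC and ribosome biogenesis, 24 fell (82.8%, against 15.3% of all genes) and none rose. NOP56, a core protein of box C/D RNA particles, fell by 0.94, ODC1, which opens polyamine synthesis, by 1.13, and PPAT, the entry enzyme of purine synthesis, by 0.89. The median difference of the 29 was -0.84 in NT-2 and -0.38 in NT-3. The difference between the lines was called for NOP58, GAR1 and RRS1, each lower in NT-2.

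Among 25 myeloid transcription factors 10 rose (40%, against 12.2% of all genes) and 5 fell, a share (20%) near the 15.3% of all genes. CEBPB, a factor of inflammatory macrophages, read 13.5 and 13.4 with KLF4 virus, against 12.2 and 12.2 with ECV, and rose 2.45-fold. KLF9 and KLF13, relatives of KLF4, rose 2.34-fold and 2.10-fold. CEBPA, MYB, GFI1, IRF8 and EGR1 were the 5 that fell. CEBPA, needed for the granulocyte and monocyte lineage, read 11.7 and 11.9 with KLF4 virus, against 12.4 and 12.2 with ECV. GFI1, a transcriptional repressor that acts in the granulocyte lineage, read 9.15 and 9.93 with KLF4 virus, against 10.7 and 10.6 with ECV. Its fall was called larger in NT-2. CEBPE, KLF2 and JUNB had a called difference the other way, with the higher response in NT-2.

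Most DNA replication genes on the list fell. Of 38 S phase genes 24 fell (63.2%) and 2 rose, against 15.3% and 12.2% of all genes, and the median difference was -0.51 in NT-2 and -0.32 in NT-3. Without the NT-2 KLF4 array, 15 fell. POLD1, the catalytic chain of DNA polymerase delta, fell by 0.86, and MCM5, a subunit of the replicative helicase, by 0.67. The 2 that rose were ORC6, of the origin recognition complex, and E2F2, a factor that drives S phase genes. E2F2 read 13.0 and 13.1 with KLF4 virus, against 11.7 and 11.8 with ECV, a 2.42-fold rise. Of 34 genes of G2 and mitosis, 5 rose and 2 fell (6 and 1 without that array), and the share that rose (14.7%) is near the 12.2% of all genes. CDC25B, a phosphatase that starts mitosis, rose by 0.62 and CENPF, a kinetochore protein, fell by 0.53. NUF2, of the kinetochore, was called higher by 0.35 on the probe used, while the median of its 3 probes was -0.03.

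Of 19 cell cycle inhibitors and regulators of G1, 4 rose (21.1%) and 6 fell (31.6%), against 12.2% and 15.3% of all genes. CDKN1A led the 4 that rose, 9.55-fold in NT-2 and 5.69-fold in NT-3, with a difference between the lines of 0.75 ± 0.235 (adjusted p = 0.102). CCND3, cyclin D3, rose 1.94-fold. CCND2, cyclin D2, read 9.02 and 9.55 with KLF4 virus, against 10.4 and 10.9 with ECV, and fell by 1.38. CDK6, the kinase partner of the D cyclins, read 8.52 and 8.57 with KLF4 virus, against 9.76 and 9.80 with ECV, and fell by 1.24 with nearly equal values in the lines (-0.01 ± 0.209, SE).

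Genes of the lysosome and phagosome rose in 13 of 26 cases and none fell, against 12.2% and 15.3% of all genes. IFI30, a thiol reductase of antigen processing, read 12.9 and 13.2 with KLF4 virus, against 10.2 and 10.1 with ECV (7.27-fold; adjusted p = 6.4e-09). The cathepsins CTSH and CTSD rose 2.54-fold and 1.88-fold, and GRN, progranulin, rose 1.75-fold. CYBB, the catalytic chain of the phagocyte oxidase, was the gene of this list whose rise was called larger in NT-2. It read 11.2 and 10.3 with KLF4 virus, against 10.2 and 10.3 with ECV.

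Of 19 calcium-binding and granule proteins 8 rose (42.1%, against 12.2% of all genes) and 3 fell. S100A10, a partner of annexin A2, rose 2.28-fold. The 3 that fell were MS4A3, PRTN3 and AZU1, a share (15.8%) near that of all genes (15.3%). PRTN3 and AZU1 are proteins of primary granules. ELANE, neutrophil elastase, is of that kind and did not follow, with 10.9 and 11.5 with KLF4 virus, against 10.4 and 10.7 with ECV. MPO was near background on all 4 arrays, so a fall of MPO could not have been seen. PRTN3, proteinase 3, read 8 and 7.99 with KLF4 virus, against 8.58 and 8.71 with ECV. CTSG, cathepsin G, was lower in NT-2 alone, at 13.5 and 14.4 with KLF4 virus, against 14.3 and 14.3 with ECV, and the lines were called different (-0.91 ± 0.177, SE).

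Of 12 complement and secreted factors, 9 rose (75%) and none fell, against 12.2% and 15.3% of all genes. TIMP1, an inhibitor of matrix metalloproteinases, read 14.3 and 13.9 with KLF4 virus, against 12.6 and 12.6 with ECV, a 2.89-fold rise. PLAUR, the urokinase receptor, rose 2.71-fold, CFP, properdin, 2.27-fold and CFD, complement factor D, 2.06-fold. MHC class I genes rose in 7 of 15 cases (46.7%) and none fell, against the same shares of all genes. HLA-B read 12.5 and 12.5 with KLF4 virus, against 10.96 and 10.9 with ECV (2.95-fold), and HLA-F rose 3.54-fold on the probe used but not on its second probe (0.01). HLA genes are alike in sequence, and their probes may share RNA. Of 5 MHC class II genes, HLA-DRA rose by 0.33 and HLA-DRB1 fell by 0.66. The second probe of HLA-DRA gave -0.01, and its call was lost without the NT-2 KLF4 array (adjusted p = 0.201).

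Of 17 sterol and fatty acid synthesis genes 6 fell (35.3%) and none rose, against 15.3% and 12.2% of all genes. FASN, fatty acid synthase, read 11.3 and 11.7 with KLF4 virus, against 12.5 and 12.7 with ECV, and fell by 1.10. ACACA, acetyl-CoA carboxylase, fell by 0.87. IDI1, of the isoprenoid pathway, fell by 0.56, and LSS, lanosterol synthase, by 0.84 on 1 of its 3 probes, the others giving -0.14 and 0.09. Of 13 genes of oxidative stress and iron, 6 rose (46.2%), among them AKR1C2 described above, NQO1 (2.11-fold, with 0.06 on its second probe), HMOX1 (2.22-fold) and AKR1C3 (1.82-fold), and TFRC, the transferrin receptor, fell.

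Of 19 genes of the unfolded protein and amino acid stress responses, 6 rose and 1 fell (PHGDH, of serine synthesis, whose call was lost without the NT-2 KLF4 array). As shares, 31.6% rose and 5.3% fell, against 12.2% and 15.3% of all genes. DDIT3, the stress factor CHOP, rose 1.86-fold, ATF3 1.58-fold, and the chaperone genes DNAJB9 and PDIA4 1.62-fold and 1.49-fold. Of 19 apoptosis genes, 5 rose and 1 fell (3 and 1 without the NT-2 KLF4 array). Over both lines 26.3% of the apoptosis genes rose and 5.3% fell, against the same shares of all genes. Their median difference was 0.17 in NT-2 and only 0.07 in NT-3. BCL2A1 and MCL1, which protect from apoptosis, rose 1.96-fold and 1.47-fold, and PMAIP1, which promotes it, rose 1.52-fold. BCL2, another protector, fell by 0.73 on the probe used, with -0.64 and -0.10 on its others. Of 22 ribosomal protein genes 5 fell and none rose, and the share that fell (22.7%) is near the 15.3% of all genes. RPL22 fell by 0.71, RPL29 by 0.60 and RPS7 by 0.55. RPL13 fell by 0.75 and was the exception among the falls, with 9.39 and 9.24 with KLF4 virus, against 9.79 and 10.3 with ECV, and a larger fall in NT-3.

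Markers of other lineages were few past the filter. Of 6 erythroid, megakaryocyte and mast cell markers, 2 fell (33.3%, against 15.3% of all genes), the tryptases above. The rest, including KIT and HBA2, stayed between 7.05 and 7.60. The summed linear level of the 6 was 2939 and 2139 in NT-2 and NT-3 with KLF4 virus, against 7358 and 5586 with ECV. Of 2 epithelial and fibroblast markers tested, LAMB3, a laminin chain, rose 2.03-fold and KRT18, a keratin, was at background.

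The lines shared the direction of most genes, with larger values in NT-2. Among all genes, 8298 of 11857 (69.98%) had the same sign in both. Across genes, which are not independent replicates, the differences in NT-2 and NT-3 had a Pearson r of 0.777 and a Spearman rho of 0.639, and the points share the array design and the normalization. The SD of the differences over all genes was 0.477 in NT-2 and 0.352 in NT-3, and lay between 0.329 and 0.352 in the 4 targeted lines. At least 2-fold, 344 genes rose in NT-2 and 159 in NT-3, and between 146 and 173 rose in each targeted line. The 137 shared rises were 39.8% of those in NT-2 and 86.2% of those in NT-3. Falls of at least 2-fold numbered 108 in NT-2 and 50 in NT-3, between 19 and 32 in the targeted lines, and the 33 shared ones were 30.6% and 66% of the lines' falls.

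Among the called rises, 1044 of 1443 (72.3%) were larger in NT-2, with medians of 0.62 in NT-2 and 0.45 in NT-3. Of the called falls, 1278 of 1810 (70.6%) were larger in NT-2, with medians of -0.52 and -0.40. The 2 arrays with KLF4 virus differed more from each other than any other pair of a group: the SD between lines, pooled over genes, was 0.194 for them, against 0.107 for the 2 ECV arrays and 0.0902 to 0.112 for the pairs of targeted lines.

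**Figure D2:**
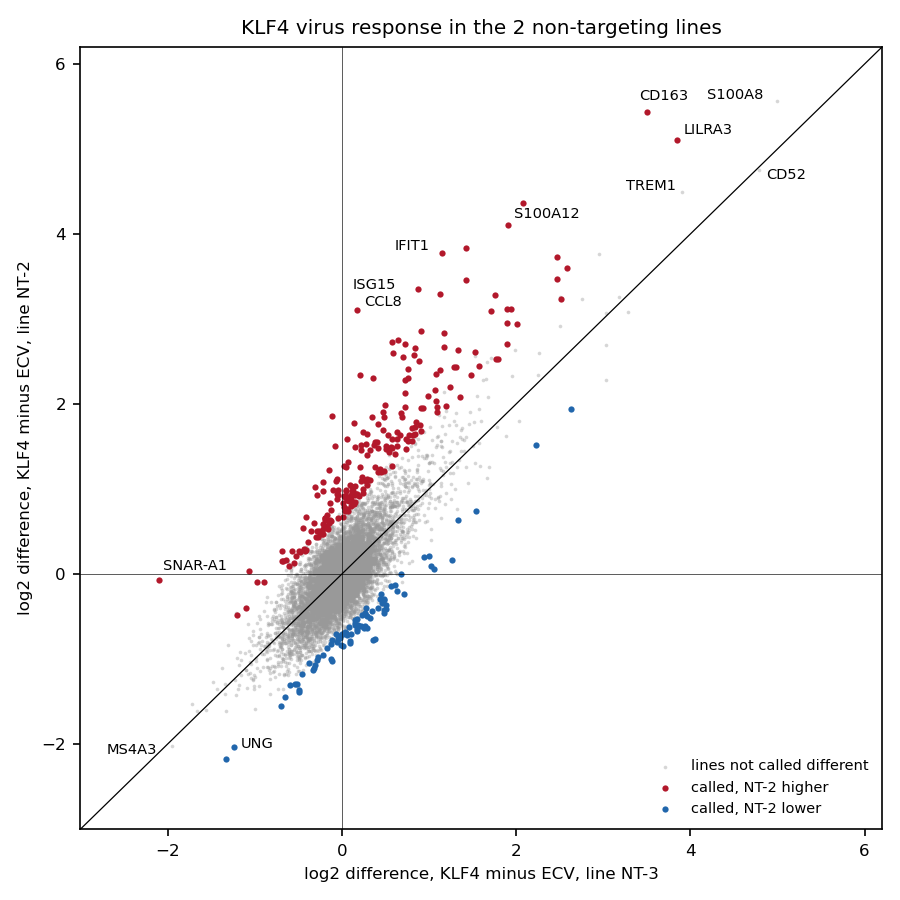
KLF4 virus minus ECV on the log2 scale in NT-2 (vertical axis) against NT-3 (horizontal axis), 1 point per gene for 11857 genes, with the line of equal size drawn in black. The 217 genes called higher in NT-2 (red) lie above that line and the 84 called lower (blue) below it, while S100A8 and CD52 lie close to it.

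The difference between the lines was then tested gene by gene. Each line has 1 array per virus, so the spread came from the 8 arrays of the targeted lines, and the test assumes that the non-targeting arrays vary like those. It called 301 genes (2.54%): 217 (1.83%) were higher in NT-2 and 84 (0.708%) lower. At an unadjusted p under 0.05 there were 1641. After a background correction with an offset of 50 (normexp) 68 were called, and LILRA3, CD163, AQP9, PPBP and S100A12 were no longer among them. Their differences were not smaller there (1.28 for LILRA3, 1.99 for CD163, 2.38 for AQP9, 2.46 for PPBP and 2.31 for S100A12), with adjusted p of 0.0999 to 0.193. Of the 217, 157 rose in both lines by unequal amounts, 5 fell in both and 55 had opposite signs. Of the 84, 10 rose in both, 29 fell in both and 45 had opposite signs.

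Most of these gaps were between the KLF4 arrays and not between the ECV arrays. For the 217, NT-2 minus NT-3 had a median of 0.86 between the KLF4 arrays and -0.08 between the ECV arrays, and the KLF4 gap was the larger in 206. For the 84, the medians were -0.59 and 0.19, and the KLF4 gap was the larger in 72. The 217 and the 84 were picked for a gap between NT-2 and NT-3, so their place against the targeted lines is partly built in. Over all 11857 genes, NT-2 lay above all 4 targeted lines in 2931 and below them in 3524. NT-2 lay above all 4 in 212 of the 217 genes, and NT-3 lay within their range in 109 and below it in 102. The median difference of the 217 was 1.28 in NT-2 and 0.25 in NT-3, and 0.33 to 0.57 in the targeted lines. For the 84 lower genes, NT-2 lay below all 4 targeted lines in 81, while NT-3 lay above them in 65.

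Interferon response genes showed the split most widely. They are switched on through the JAK-STAT pathway when cells sense interferon or viral nucleic acid. Of 41 tested, 28 rose over both lines (68.3%, against 12.2% of all genes) and 1 fell. Both ECV arrays lay below the background level for 8 of the 41, against 1204 of all 11857 genes. Such a gene passes the filter only through other arrays and could hardly be called as a fall. The share that rose is therefore partly built in. For the line difference 23 were called higher in NT-2, against 1.83% of all genes, and none lower. Alone, NT-2 had 32 that rose and none that fell, and NT-3 had 20 that rose and 3 that fell. The median difference was 1.25 in NT-2 and 0.39 in NT-3, with 0.32 to 0.41 in the targeted lines. NT-2 lay above all 4 targeted lines for 35 of the 41, against 2931 of all 11857 genes, and NT-3 did so for 6. The median gap between NT-2 and NT-3 was 0.85 between the KLF4 arrays and -0.03 between the ECV arrays.

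IFIT1, which binds foreign RNA lacking a host cap, read 11.4 in NT-2 and 8.92 in NT-3 with KLF4 virus, against 7.58 and 7.77 with ECV. It rose 13.7-fold in NT-2 and 2.22-fold in NT-3, a difference between the lines of 2.63 ± 0.234 (SE; adjusted p = 2.64e-07). Its second probe gave 0.22 over both lines. ISG15, a ubiquitin-like protein, read 12.8 and 10.5 with KLF4 virus, against 9.46 and 9.67 with ECV, 10.2-fold in NT-2 and 1.83-fold in NT-3. IFIT2, a relative of IFIT1, read 10.9 and 8.95 with KLF4 virus, against 7.61 and 7.82 with ECV. For all 3 genes the NT-3 value lay within or near the range of the targeted lines, which was 1.04 to 1.76 for IFIT1, 0.58 to 1.54 for ISG15 and 1.14 to 1.37 for IFIT2.

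Other interferon genes rose in both lines. IRF7, the factor that amplifies the interferon response, read 10.6 and 9.25 with KLF4 virus, against 7.99 and 7.92 with ECV, 6.19-fold in NT-2 and 2.52-fold in NT-3. Over both lines the probe used for IRF7 gave 1.98, and its other probes 0.33 and 1.30. IFIH1, the RNA sensor MDA5, rose 3.00-fold and 1.67-fold. OAS1, which makes the activator of RNase L, rose 6.2-fold in NT-2 and 3.96-fold in NT-3, and its line difference was not called (0.65 ± 0.188, adjusted p = 0.0697). Over both lines OAS1 gave 2.31 on the probe used and 0.50 to 2.51 on its other 3 probes. OAS3 rose 2.30-fold and 1.82-fold. MX2, a restriction factor of lentiviruses in human cells, was the member that fell over both lines. It read 9.85 and 9.01 with KLF4 virus, against 9.95 and 9.98 with ECV, so the fall lay in NT-3, and the targeted lines ran from -0.87 to -0.57.

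Leaving out the NT-2 KLF4 array, 23 of the 41 interferon genes rose and 3 fell. The values over the rest were smaller: 1.24 for IFIT1 in place of 2.47, and 0.98 for ISG15 in place of 2.11. The interferon-stimulated response element was found within 250 bases before the start in 22 of the 169 promoters available for the genes higher in NT-2 (13%), and in 1 of 59 for those lower (1.69%). It was found in 9 of 111 promoters of the shared 2-fold rises (8.11%), in 246 of 9486 for all genes tested (2.59%) and in 839 of 27305 in the whole table (3.07%). GGGNGTGG was found in 26 of the 111 promoters of shared rises (23.4%), in 4 of 24 of the shared falls (16.7%) and in 1803 of 9486 for all genes tested (19%). For the genes with a line difference it was found in 23 of 169 promoters of those higher in NT-2 (13.6%) and in 17 of 59 of those lower (28.8%). A match describes letters and does not show that a factor binds.

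Chemokines and inflammatory genes of the NF-kB pathway were split as well. Of 29 tested, 17 rose (58.6%, against 12.2% of all genes), and 8 were called higher in NT-2, against 1.83% of all genes. The 4 that fell were CXCL1, CCL5, CD83 and NLRP3, a share (13.8%) near the 15.3% of all genes. Both ECV arrays lay below the background level for 4 of the 29, so those could hardly be called as falls. Without the NT-2 KLF4 array, 10 rose and 4 fell. The medians were 0.56 in NT-2 and 0.21 in NT-3, with 0.14 to 0.31 in the targeted lines. NFKBIZ, an atypical inhibitor protein that helps NF-kB at some genes, read 10.5 and 9.69 with KLF4 virus, against 7.78 and 7.79 with ECV, 6.54-fold and 3.73-fold. IER3, an early response gene, rose 7.66-fold in NT-2 and 4.04-fold in NT-3. TNFAIP2, a gene induced by TNF, rose 1.57-fold and 1.66-fold, with a line difference of -0.08 ± 0.183 (SE). IL1B, the inflammatory cytokine, was called higher in NT-2 and read 10.7 and 9.62 with KLF4 virus, against 8.62 and 8.54 with ECV.

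CCL8, a chemokine that draws monocytes, had the largest gap of all. It read 10.2 in NT-2 and 7.36 in NT-3 with KLF4 virus, against 7.05 and 7.18 with ECV. The ECV arrays were both below the background level, so NT-2 rose at least 7.39-fold. NT-3 stayed near that level with both viruses, a difference of 0.18. The lines differed by 2.93 ± 0.214 (SE; adjusted p = 1.47e-08). Over both lines CCL8 was called (adjusted p = 0.0366), and this call was lost without the NT-2 KLF4 array (adjusted p = 0.214). It was also lost on leaving out most of the other single arrays, as was that of SPP1 below.

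SPP1, osteopontin, a secreted matrix protein of macrophages, read 10.97 and 8.80 with KLF4 virus, against 8.63 and 8.60 with ECV. It rose 5.07-fold in NT-2 and 1.15-fold in NT-3, and the targeted lines ran from -0.97 to 0.58, so they were far apart too. Without the NT-2 KLF4 array its difference was 0.19 (adjusted p = 0.535), and its second probe gave 0.65 over both lines, against 1.27. CCL3L1 and CCL3L3 are near-identical copies of the chemokine gene CCL3, and their probes may take up each other's RNA. CCL3L1 read 11.1 and 9.08 with KLF4 virus, against 8.40 and 8.51 with ECV, and CCL3L3 read 11.8 and 9.60 with KLF4 virus, against 9.03 and 8.95 with ECV. The call over both lines was lost for CCL3L3 without the NT-2 KLF4 array (adjusted p = 0.0553), and without the ECV array of NT-2 (0.0705) or NT-3 (0.0879). For CCL3L1 it held without the NT-2 KLF4 array (adjusted p = 0.028).

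PPBP and S100A12 were high in both lines but higher in NT-2. PPBP, a chemokine precursor of platelets and monocytes, read 11.8 and 9.11 with KLF4 virus, against 7.96 and 7.68 with ECV, 14.3-fold and 2.68-fold. Its difference between the lines was 2.42 ± 0.604 (SE; adjusted p = 0.0321), and the targeted lines spread from 1.16 to 2.89. S100A12, a partner of calprotectin in inflammation, read 11.2 and 8.88 with KLF4 virus, against 7.04 and 6.98 with ECV. With both ECV arrays below background it rose at least 14.7-fold in NT-2 and at least 3.05-fold in NT-3.

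**Figure D3:**
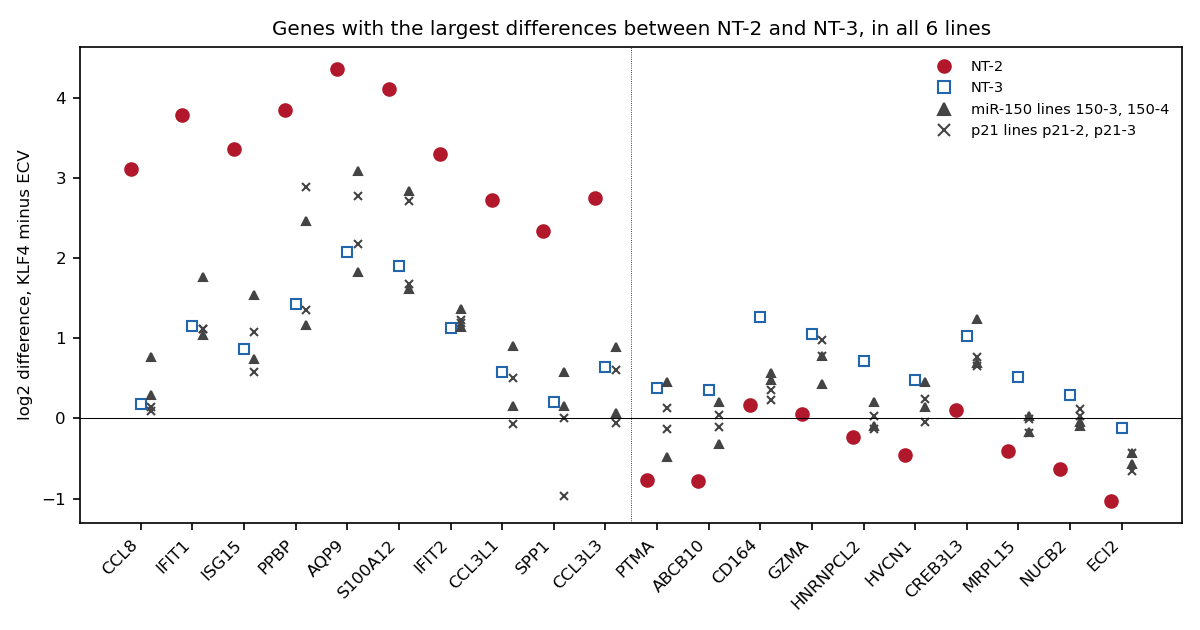
KLF4 virus minus ECV on the log2 scale (vertical axis) for the 10 genes with the largest positive and the 10 with the largest negative difference between NT-2 and NT-3, in all 6 lines, 1 point per line. NT-2 (red circles) stands above the other 5 lines for the first 10 genes, CCL8 to CCL3L3, and below them for the last 10, PTMA to ECI2.

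Genes with a larger or more positive difference in NT-3 moved less, by 0.91 to 1.15 between the lines for the 10 largest. GZMA, granzyme A of cytotoxic cells, read 9.73 and 10.8 with KLF4 virus, against 9.67 and 9.77 with ECV. It rose 2.08-fold in NT-3 and 1.04-fold in NT-2 (difference between the lines -0.995 ± 0.212, adjusted p = 0.0114). The targeted lines ran from 0.43 to 0.97 for GZMA, so here too NT-2 stood apart. CREB3L3, a membrane-bound transcription factor known from liver, read 7.66 and 8.63 with KLF4 virus, against 7.56 and 7.61 with ECV. For CREB3L3 the targeted lines ran from 0.66 to 1.24, and NT-2 was again the line that stood apart. CD2, an adhesion receptor of T cells, rose 3.83-fold in NT-2 and 6.21-fold in NT-3.

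CD164, a sialomucin, is a case where the ECV arrays differed. It read 9.66 and 10.01 with KLF4 virus, against 9.49 and 8.74 with ECV. ABCB10, a mitochondrial transporter, and NUCB2, a calcium-binding protein, had opposite signs in the lines. ABCB10 read 8.83 and 9.56 with KLF4 virus, against 9.60 and 9.20 with ECV, and NUCB2 read 11.6 and 12.1 with KLF4 virus, against 12.3 and 11.8 with ECV. PTMA, prothymosin alpha, and HNRNPCL2 belong to families with many copies, and their probes may take up RNA of other members. PTMA differed by -1.15 and HNRNPCL2 by -0.95 between the lines. ECI2, an enzyme of fatty acid oxidation, fell by 1.03 in NT-2 and by 0.11 in NT-3, and its call over both lines was lost without the NT-2 KLF4 array (adjusted p = 0.168).

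Each line was also tested alone. In NT-2, 1617 genes (13.6%) rose and 1943 (16.4%) fell, and in NT-3, 952 (8.03%) rose and 1069 (9.02%) fell. Of the 1522 genes called in both, 732 rose in both, 783 fell in both and 7 were called in opposite directions. The 7 were BRF2, HVCN1, MRPL15, MRPL30, MRPL39, PHF21A and TDRD1. MRPL15, MRPL30 and MRPL39 encode proteins of the mitochondrial ribosome, and all 3 were lower in NT-2 and higher in NT-3. MRPL15 read 10.2 and 10.9 with KLF4 virus, against 10.7 and 10.3 with ECV. HVCN1, a proton channel, read 7.46 and 8.10 with KLF4 virus, against 7.92 and 7.62 with ECV, and its second probe gave -0.14 over both lines.

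**Figure D4:**
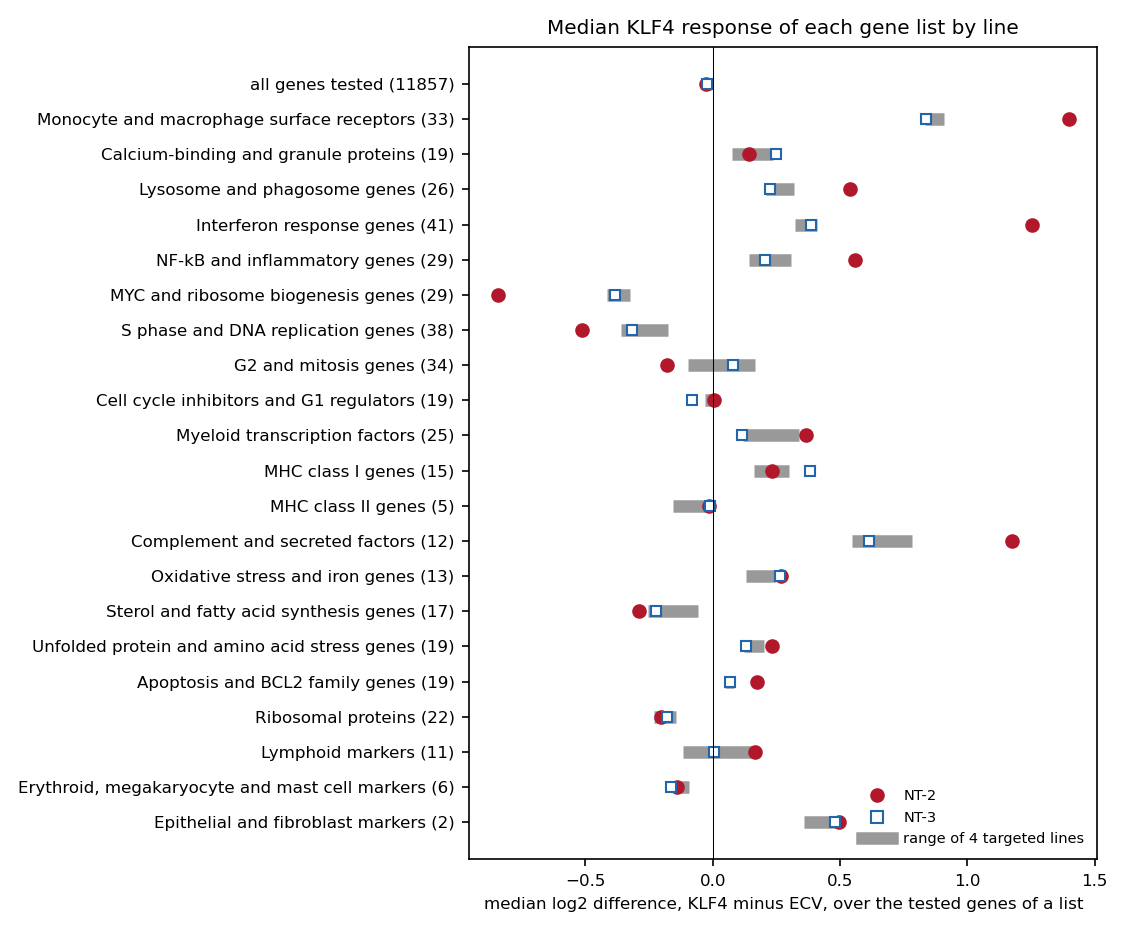
Median of KLF4 virus minus ECV on the log2 scale (horizontal axis) over the tested genes of each list, with the number of genes in brackets, in NT-2 (red circles) and NT-3 (open squares), and the range of the 4 targeted lines as a grey bar. NT-2 lies outside the grey bar for interferon response genes (1.25, bar 0.32 to 0.41) and for MYC and ribosome biogenesis genes (-0.84, bar -0.42 to -0.32), while NT-3 lies within it or at its edge for both. NT-2 is also outside it for other lists, among them surface receptors (1.40, bar 0.83 to 0.91) and lysosome and phagosome genes (0.54, bar 0.21 to 0.32). It is inside for some, such as MHC class I genes (0.23, bar 0.16 to 0.30).

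The response of the non-targeting lines was set against the mean of the miR-150 and p21 lines. No gene was called by limma (0%), while 686 had p under 0.05 before adjustment. The 3 smallest p values for a higher response in the non-targeting lines belonged to CAPZA1, AMY1A and FTH1P3, and the 3 for a lower one to BTK, WDR36 and BMI1, all with an adjusted p of 0.813. FTH1P3, a ferritin pseudogene whose probe may take up FTH1 RNA, read 11.9 and 11.3 with KLF4 virus, against 9.61 and 9.33 with ECV, a 4.41-fold rise, and the targeted lines ran from 1.04 to 1.29. BTK, a kinase of B cell and myeloid receptors, read 9.23 and 9.17 with KLF4 virus, against 10.1 and 10.2 with ECV, and the targeted lines ran from -0.57 to -0.27. CAPZA1, an actin-capping protein, rose 1.52-fold, and the targeted lines ran from -0.18 to 0.20. Taken alone against the targeted lines, NT-2 had 420 genes called (3.54%; 295 higher and 125 lower) and NT-3 had 1 (0.00843%). That one was SNAR-A1, a small non-coding RNA of a multicopy family, which read 14.6 in NT-2 and 12.4 in NT-3 with KLF4 virus, against 14.6 and 14.5 with ECV. Without the NT-3 KLF4 array, 756 genes were called for the comparison of non-targeting and targeted lines, and without the NT-2 KLF4 array 4 were.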

How the data were processed

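Biotin-labelled cRNA from total RNA of THP-1 cells was measured on Illumina bead arrays, per the labels. The authors deposited log2 expression values for 47323 probes, from 6.69 to 14.8, with array medians of 7.17. No source used here gives the normalization or scanner software. A deposited table of 24 columns that match no sample label was not used, so the planned start from raw intensities was replaced by the deposited log2 values. Array number limits the precision.

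A probe was kept above 7.27 (the 95th percentile of a background mirrored at the commonest level) on at least 2 arrays. The kept probe with the highest mean stood for its gene. Of the probes, 30113 had 1 symbol, 8 several and 17202 were not listed in the platform annotation. Symbols were updated through gene identifiers with RefSeq's table of GRCh38.p14, which held 30074 of them. Promoters also came from RefSeq.

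Models were fitted with limma 3.58.1 in R 4.3.3 with Benjamini-Hochberg adjustment over 11857 genes: group means of all 12 arrays for the KLF4 effect (6 residual degrees of freedom), and a mean for each non-targeting array for the difference between NT-2 and NT-3 (4 residual degrees of freedom). Standard errors are limma's. Nothing says that the lines came from separate cultures beyond their names, so p-values measure the spread between these arrays. Arrays of a line share its name in the labels. Their deviations from the group means had a correlation of 0.0967 in the non-targeting lines, and the line as a block was an alternative. In simulated data with 100 genes changed at each size, the KLF4 effect was recovered for 58% at 0.5 log2 and 99% at 1, and the difference between lines for 0% and 15%. The simulated noise had 1 spread per gene for all arrays. In the data the SD between lines was 0.194 for the non-targeting KLF4 arrays and 0.0902 to 0.112 for the other pairs. These rates therefore need not hold for the data.

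Members and lists were chosen with earlier results of these data known. Named by rule were 4 fixed genes, the 12 largest rises and falls, the 10 largest line differences each way, the 4 smallest p of each of 21 lists and 3 each way against the targeted lines. Other names (members beside small counts, marker genes, CYBB, CTSG, IL1B, SNAR-A1) were chosen after their values were seen. Alternatives covered normalization, background offset, filter, choice of probe, variance model, fold threshold, array weights, the block and single arrays left out. Figures used matplotlib 3.10.9.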

Additional observations from a re-analysis of the deposited data

Results flagged for a closer look

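The KLF4 effect differed between NT-2 and NT-3 by the limma test of the difference itself for 301 genes, and 33 of the genes named by rule are among them. Each line has 1 array per virus, and the spread was taken from the targeted lines. Values are the NT-2 effect minus the NT-3 effect on the log2 scale.

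Among the shared rises, the value was 1.26 for LILRA3, 1.92 for CD163, 2.29 for AQP9, 1.26 for EMP1 and 1.01 for AKR1C4. For the shared falls TMEM163 and UNG it was -0.85 and -0.79. The genes most in favour of NT-2 were CCL8 at 2.93, IFIT1 at 2.63, ISG15 at 2.48, PPBP at 2.42, S100A12 at 2.21, IFIT2 at 2.17, CCL3L1 at 2.15, SPP1 at 2.14 and CCL3L3 at 2.11.

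In the other direction, PTMA stood at -1.15, ABCB10 at -1.13, CD164 at -1.10, GZMA at -0.995, HNRNPCL2 at -0.95, HVCN1 at -0.94, CREB3L3 at -0.93, MRPL15 at -0.92, NUCB2 at -0.92 and ECI2 at -0.91. Named from the gene lists were IRF7 at 1.30, IFIH1 at 0.85, NFKBIZ at 0.81, IER3 at 0.92, HLA-E at 0.81, RPL13 at 0.69 and CD2 at -0.70.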

How the results depend on the processing

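Under cyclic loess normalization 3174 genes were called for the KLF4 effect and 307 for the difference between NT-2 and NT-3, against 3253 and 301. With each line as a block, 3323 genes were called for the KLF4 effect, 3093 of them shared, and none against the targeted lines; the block ended no call of the 12 largest rises or falls. Larger moves of the totals came with other settings. Normexp with an offset of 50 gave 56 genes at least 2-fold lower in both lines, against 33, and 68 for the line difference, and 24 of the 33 genes named for that difference were no longer called, CD163, AQP9 and S100A12 among them, though their differences were not smaller. Against a fold of 2, 49 genes were called for the KLF4 effect and 5 for the line difference. The 4 non-targeting arrays alone gave 1427, and NT-3 alone 2021. Against the targeted lines, NT-2 alone gave 420 and NT-3 alone 1, which were added after seeing the data.

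Leaving out single arrays gave 2028 to 4231 genes for the KLF4 effect (2028 without NT-3 ECV, 2400 without NT-2 KLF4), 274 to 408 for the line difference, and 0 to 756 against the targeted lines (756 without NT-3 KLF4, 4 without NT-2 KLF4). The sign turned for NUF2 with the median of its probes (-0.027) and for KLF4 without NT-3 KLF4 (0.023, against -0.185 without NT-2 KLF4), neither then called; the cause was not tested. With the median of probes UNG, SPP1, UBE2C, HLA-DRA and LSS were no longer called. Of 105 genes named for the KLF4 effect, 25 kept their call under every alternative.

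Genes near the background level of 7.27 have uncertain folds, and with 1 array per line and virus a line difference has no replicate.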
